A study of Mus musculus with 20 samples.

Results

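Lumbar dorsal root ganglia that had received no injection were compared between mice recorded as Prdm12 knockouts and mice recorded as controls. The libraries were chosen by 2 words in the names under which their counts were deposited, one for a noninjected ganglion and one for the genotype. Of the 20 libraries of the series, 10 were noninjected, 5 of them with the word icKO and 5 with the word Contol, spelled so. The 10 adult C57Bl6 mice each gave 1 noninjected library and 1 library after formalin, an irritant injected to cause inflammatory pain. Ganglia of levels L3 to L5 were taken 1 month after tamoxifen, and polyA RNA was sequenced from libraries that keep no record of strand.

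Both genotypes carried Prdm12 alleles flanked by loxP sites (P12 Fl/Fl) and both received tamoxifen (TAM). The inducible conditional knockouts (icKO) also carried a Cre recombinase fused to a tamoxifen-dependent receptor domain. The characteristics name it AdvCreERT2, which is driven from the gene of advillin, an actin-binding protein of sensory neurons. The series text names Rosa26CreERT2, which is driven from a locus active in most tissues, and the record does not settle which was used. Controls carried no Cre by these labels, so a Cre allele was part of the difference between the groups.

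Prdm12 encodes a zinc finger protein with a PR domain that is needed for the nociceptor lineage to form in the embryo, and mutations in the human gene cause congenital insensitivity to pain. Nociceptors are the sensory neurons that respond to noxious heat, cold, pressure and chemicals, and they keep transcribing Prdm12 in adult life. A dorsal root ganglion also holds neurons for touch, itch and body position, satellite glia around the neuron bodies, Schwann cells along the axons, macrophages, vessels and connective tissue. In such bulk RNA, fewer cells of a type and less RNA per cell cannot be told apart.

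Sample titles and deposited names gave the same genotype for 6 animals and opposite genotypes for 4. The icKO-named libraries were titled control 1, icKO 1, control 4, icKO 4 and icKO 5, and comprised 2 females and 3 males. The Contol-named libraries were titled control 2, icKO 2, icKO 3, control 3 and control 5, and comprised 3 females and 2 males. Genotype below is the word in the deposited name, and libraries are identified by their titles where they are listed. The noninjected libraries held 12136431 to 20925390 counts. Grouped by title instead, 0 of 17347 tested genes passed edgeR's quasi-likelihood test at a Benjamini-Hochberg adjusted p under 0.05, with 1076 at an unadjusted p under 0.05, 2 passing in DESeq2, 0 in limma-voom and 425 in edgeR without the filter on low counts. The libraries held transcripts of sensory neurons, the tissue named in the labels. The summed level of 12 pan-sensory neuron genes was 13594 to 16816 CPM (counts per 1000000 after TMM scaling, a correction for library composition) in icKO-named and 11560 to 14235 CPM in Contol-named libraries.

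Prdm12 (ENSMUSG00000079466), the targeted gene, was lower in every icKO-named library than in any Contol-named library. Its promoter window from RefSeq, 250 bases before to 50 after the annotated start, is shown because the gene defines the comparison. It lies at chr2:31639787-31640086 on the plus strand of GRCm38.p6, with each CG dinucleotide in capitals.
Prdm12: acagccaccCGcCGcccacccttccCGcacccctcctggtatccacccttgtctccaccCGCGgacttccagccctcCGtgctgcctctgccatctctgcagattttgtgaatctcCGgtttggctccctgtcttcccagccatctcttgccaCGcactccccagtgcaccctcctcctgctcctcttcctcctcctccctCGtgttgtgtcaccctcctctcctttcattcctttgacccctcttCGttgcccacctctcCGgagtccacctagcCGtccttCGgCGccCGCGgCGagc
This window held 17 CG dinucleotides, and 31.4% of all 32851 promoter windows of the same length held as many or more. The Prdm12 level was 23.0, 23.7, 38.2, 22.1 and 23.2 CPM in the icKO-named libraries titled control 1, icKO 1, control 4, icKO 4 and icKO 5. It was 98.2, 73.9, 81.0, 77.1 and 95.7 CPM in the Contol-named libraries titled control 2, icKO 2, icKO 3, control 3 and control 5. The 2 ranges were far apart, with the library titled control 4 the highest of the icKO-named ones. The mean was 26.0 ± 6.83 CPM against 85.2 ± 11.1 CPM (SD, n = 5 and 5), a log2 fold of -1.74 (SE 0.16) in icKO-named libraries. These values describe the groups and are given with no test, because the deposited name was preferred over the title with the Prdm12 levels already known. The sources used here do not give which exons lie between the loxP sites, so reads from outside the deleted part can be among those counted.

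**Figure D1:**
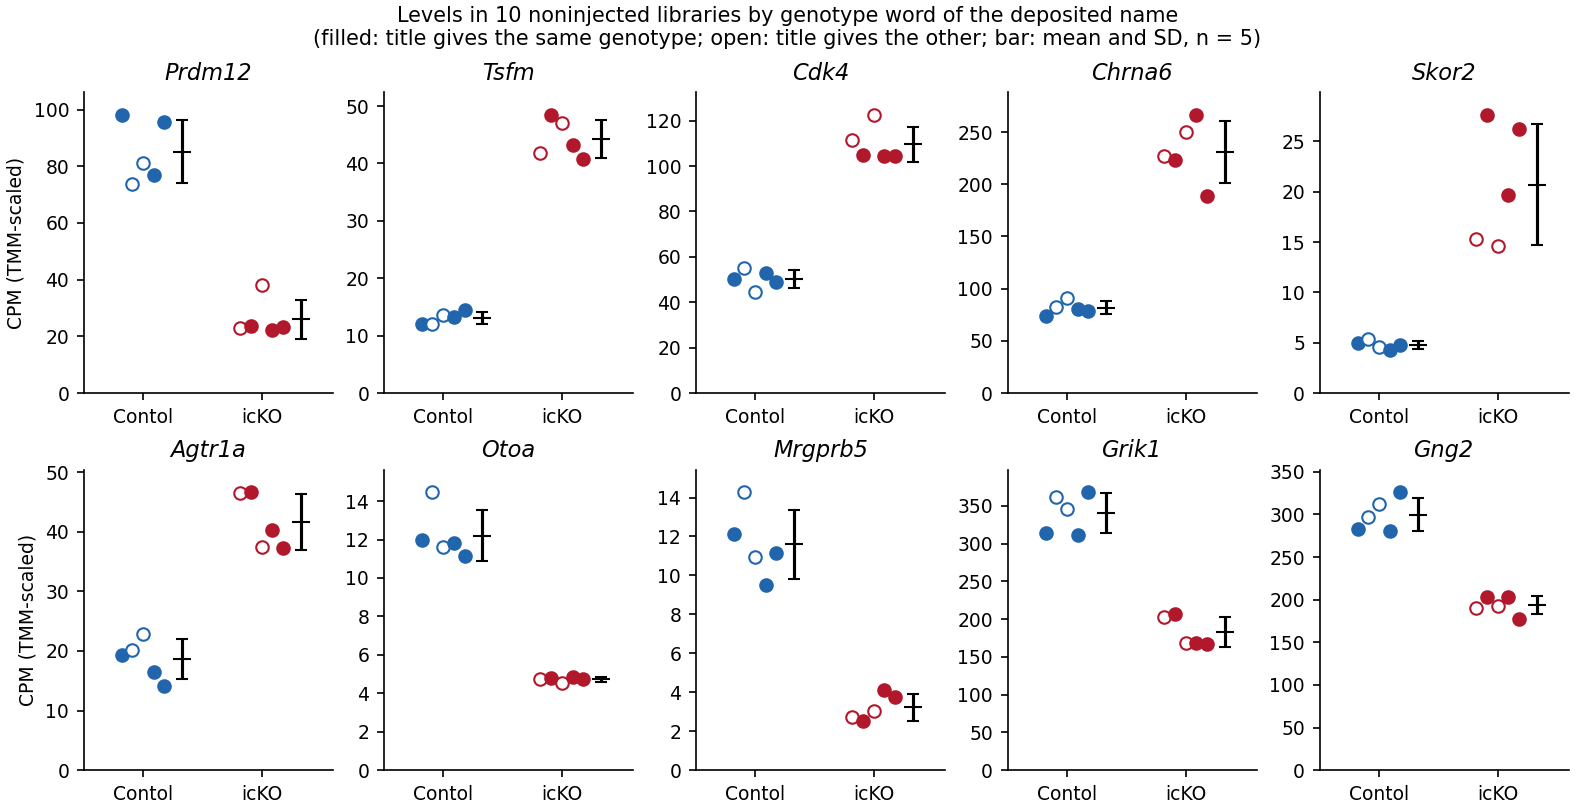
Level (CPM after TMM scaling, linear axes from 0) of 10 genes in each of the 10 noninjected libraries, by the genotype word of the deposited name; filled points are libraries whose title gives the same genotype, open points those whose title gives the other, and bars are the mean and SD of 5. The groups do not overlap for any of the 10 genes shown, and the open points lie with the filled points of their deposited name. The genes were chosen with their differences by that name known, so this separation is no test of which record is right. Over all tested genes, the groups did not overlap for 4.49% on the higher side and 3.85% on the lower side.

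Across all 17347 genes tested, 727 were higher (4.19%) and 448 lower (2.58%) in icKO-named libraries by edgeR's quasi-likelihood test with sex as a covariate. Most differences were small. Of the higher genes 507, and of the lower genes 342, differed by less than 1.5-fold, while 60 and 34 differed by more than 2-fold. The groups of libraries did not overlap for 779 genes on the higher side (4.49%) and 667 on the lower side (3.85%). In all 10 fits that left out 1 library, 121 of the higher and 40 of the lower genes passed each time. Without the library titled control 3, the counts were 129 higher and 46 lower, and without that titled control 1 they were 1323 and 674. The other libraries that moved a count by more than 1.5 times were those titled control 2 (347 and 180 without it), icKO 1 (240 and 88), icKO 2 (243 and 119), icKO 3 (348 and 241) and icKO 4 (382 and 192). Of the 69 called genes that a fixed rule selects for naming, 34 passed in every setting run and 35 were lost when some single library was left out. All 35 were lost without the library titled control 3, and the adjusted p in that fit is given below beside most of those described. Of those not described further, Postn, Comp, Dusp6 and Cdk1, the adjusted p without it ran from 0.0823 to 0.157 (edgeR).

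The genes with the smallest p were neighbours of Avil, which encodes advillin, on chromosome 10. From Atp23 to Agap2 in RefSeq's gene order, 9 of 10 tested genes were higher in icKO-named libraries, against 4.19% of all genes. None of the 14 genes tested on either side of that stretch, within 12 genes of Avil, passed (0 by edgeR, DESeq2 or limma-voom, and 5 at an unadjusted p under 0.05 in edgeR), and their log2 folds ran from -0.16 to 0.78. Avil itself had a log2 fold of 0.29 (SE 0.10, edgeR adjusted p = 0.088), which did not pass. The gene order was singled out after values of these data were known.

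Tsfm (ENSMUSG00000040521), the next gene after Avil, encodes a mitochondrial translation elongation factor. It was at 41.9, 48.5, 47.0, 43.3 and 40.9 CPM in the icKO-named libraries and 12, 12, 13.6, 13.2 and 14.4 CPM in the Contol-named ones, in the title order used for Prdm12. No library fell between 14.4 and 40.9 CPM. The log2 fold was 1.76 (SE 0.09), or 3.38-fold, with an edgeR adjusted p of 5.13e-07, the smallest of all genes. Taken apart by record, the log2 fold was 1.73 in the 6 animals whose records agree. The difference by name was 1.79 in the 4 animals whose title gives the other genotype. The comparison by name was chosen with earlier results of these data known, so this is no test of which record is right.

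The promoter windows of Tsfm and of Avil are shown because these neighbours had folds near the top and at the bottom of the stretch. The Tsfm window lies at chr10:127030765-127031064 on the minus strand and the Avil window at chr10:127000459-127000758 on the plus strand (RefSeq, GRCm38.p6). CG dinucleotides are again in capitals.
Tsfm: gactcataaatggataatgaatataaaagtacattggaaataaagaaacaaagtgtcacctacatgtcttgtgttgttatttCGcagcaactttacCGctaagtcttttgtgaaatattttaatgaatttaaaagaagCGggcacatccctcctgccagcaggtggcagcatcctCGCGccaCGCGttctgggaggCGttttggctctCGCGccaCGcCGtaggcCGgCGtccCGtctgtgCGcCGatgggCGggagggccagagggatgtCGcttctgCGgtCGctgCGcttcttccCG
Avil: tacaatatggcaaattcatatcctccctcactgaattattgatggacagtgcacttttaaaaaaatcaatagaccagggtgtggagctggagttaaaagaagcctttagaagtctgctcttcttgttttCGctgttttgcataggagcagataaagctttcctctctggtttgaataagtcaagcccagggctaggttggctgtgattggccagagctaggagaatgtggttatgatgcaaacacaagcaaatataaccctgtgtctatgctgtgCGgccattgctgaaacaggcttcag
The Tsfm window held 23 CG dinucleotides, a number reached by 21.5% of all promoter windows, and the Avil window held 2, reached by 85.9%. This describes the letters of the windows, with no reading of how either gene is controlled.

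The other higher genes of the stretch lie on both sides of Avil. March9, a membrane ubiquitin ligase gene, was at 31.5 ± 4.65 CPM against 9 ± 0.817 CPM (log2 fold 1.80, SE 0.12). Mettl1, a tRNA methyltransferase gene, had a log2 fold of 1.51 (SE 0.09), and Eef1akmt3, a lysine methyltransferase gene, had one of 1.51 (SE 0.24). Cdk4, a cell cycle kinase gene, was at 110 ± 7.89 CPM against 50.4 ± 3.99 CPM (SD over 5 libraries each), 2.16-fold higher (log2 fold 1.11, SE 0.08). Tspan31, a tetraspanin gene, had a log2 fold of 1.23 (SE 0.07). On the other side, Ctdsp2, a phosphatase gene, was at 0.99 (SE 0.09) and Atp23, a mitochondrial protease gene, at 1.42 (SE 0.12). Agap2, at the far end, had the smallest fold of the 9 (0.65, SE 0.13) and did not pass when the library titled control 3 was left out (edgeR adjusted p = 0.0748). Some of these genes abut or overlap their neighbours on the other strand, as Cdk4 and Tspan31 or Mettl1 and Eef1akmt3 do, and unstranded reads do not tell such pairs apart.

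**Figure D2:**
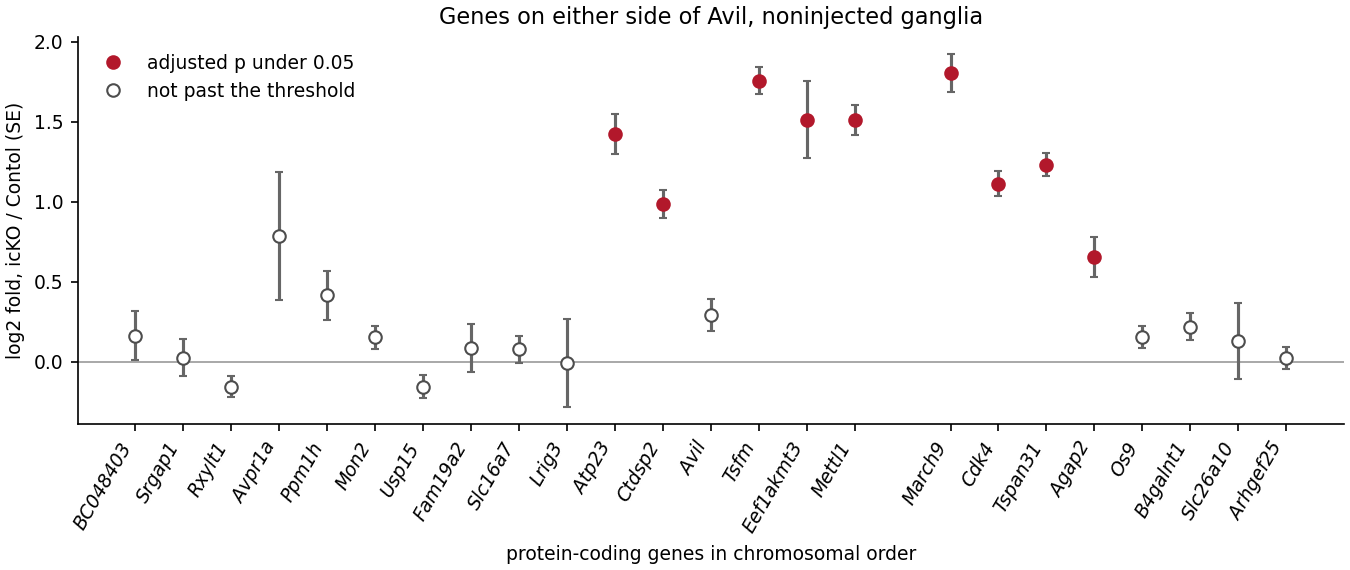
Log2 fold of icKO-named over Contol-named noninjected libraries (points, with the SE as bars) for tested protein-coding genes in chromosomal order around Avil, evenly spaced; filled points passed edgeR's adjusted p of 0.05. From Atp23 to Agap2, 9 of 10 genes are filled, the open one being Avil, and the 14 genes on either side are all open.

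Away from Avil, one of the clearest differences was in a subunit of the nicotinic acetylcholine receptors, which are ion channels opened by acetylcholine. Of 10 tested subunit genes, 3 were higher and 1 was lower (4.19% and 2.58% of all tested genes), with a list median log2 fold of -0.06 (median of all genes -0.00). Chrna6, the alpha6 subunit, was at 227, 223, 250, 267 and 189 CPM in icKO-named libraries and 74.3, 82.8, 91.4, 80.9 and 79.0 CPM in Contol-named ones. No library fell between 91.4 and 189 CPM (log2 fold 1.5, SE 0.10, edgeR adjusted p = 3.72e-06). Chrnb3, which encodes the beta3 subunit and adjoins Chrna6 in the genome, was at 27.1 ± 8.22 against 12.5 ± 2.62 CPM (± SD of 5; log2 fold 1.05, SE 0.21). Chrnb2, the beta2 subunit, was higher by 0.43 (SE 0.11), though its ranges of 82.3 to 140 and 68.7 to 87.8 CPM overlapped. Chrna7, the alpha7 subunit, fell by 0.72 on the log2 scale (SE 0.13). Without the library titled control 3, Chrnb3 (edgeR adjusted p = 0.0938) and Chrnb2 (0.136) did not pass.

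Chrna3 and Chrnb4, which encode the alpha3 and beta4 subunits, did not pass, and their levels varied widely within each group. Chrna3 was at 12.5, 7.78, 60.2, 10.1 and 5.24 CPM in icKO-named libraries and 37.3, 12.1, 8.22, 17.2 and 14.3 CPM in Contol-named ones (log2 fold -0.07, SE 0.82). Chrnb4 was at 3.55, 2.35, 28.1, 2.67 and 2.40 CPM and at 21.2, 6.26, 5.95, 8.61 and 5.74 CPM (log2 fold -0.50, SE 0.97). The libraries titled control 4 and control 2 were the highest of their groups for both genes.

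Other genes with small p on the higher side had various roles. Agtr1a, the type 1a receptor for angiotensin II and a marker of nonpeptidergic nociceptors, was at 46.6, 46.7, 37.4, 40.3 and 37.3 CPM against 19.3, 20.2, 22.9, 16.5 and 14.2 CPM (log2 fold 1.24, SE 0.08). Stk32a, a serine/threonine kinase gene, was at 43.7 ± 4.12 against 16.6 ± 2.42 CPM (± SD of 5; log2 fold 1.38, SE 0.11). Neither gene's groups overlapped, and 4.49% of all tested genes were higher without overlap. Thsd7b, a gene of thrombospondin repeats, had a log2 fold of 0.93 (SE 0.08), and St6galnac5, a sialyltransferase gene of ganglioside synthesis, one of 0.80 (SE 0.08). Fkbp5, a co-chaperone gene induced by glucocorticoids, was the only one of 12 glucocorticoid and stress genes past the threshold (0.64, SE 0.09). The list median was -0.02, and 1 of 12 is near the background of 4.19% of all tested genes higher and 2.58% lower.

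Lower genes, Prdm12 apart, included a receptor, a channel subunit and enzymes of glycolipid synthesis. Mrgprb5, a receptor gene of the Mas-related family, was at 2.72, 2.51, 3.04, 4.09 and 3.76 CPM in icKO-named libraries and 12.1, 14.3, 11, 9.49 and 11.2 CPM in Contol-named ones (log2 fold -1.86, SE 0.17). Grik1, a kainate receptor subunit gated by glutamate, was at 202, 207, 169, 169 and 167 CPM against 313, 362, 346, 312 and 368 CPM (-0.88, SE 0.08). For both, no icKO-named library reached the lowest Contol-named one. The Mrgprb genes resemble one another in sequence, and the sources used here do not give how reads with several matches were counted, so the value for the single gene is uncertain.

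Otoa, which encodes otoancorin, a protein first known from the inner ear, was at 4.73 ± 0.127 CPM against 12.2 ± 1.31 CPM (± SD of 5; log2 fold -1.35, SE 0.11). Gng2, a G protein gamma subunit gene, was at 193 ± 10.7 against 300 ± 19.7 CPM (-0.63, SE 0.07). Kcnmb1, a regulatory subunit of the calcium-activated potassium channel, fell by 0.66 (SE 0.09) on the log2 scale. B3gnt5 and A3galt2 both encode glycosyltransferases that build glycolipid chains, and their log2 folds were -0.96 (SE 0.10) and -0.83 (SE 0.10). Serpina1e, a serine protease inhibitor gene with near-identical paralogs, had one of -1.21 (SE 0.12), Them5, a mitochondrial thioesterase gene, one of -1.67 (SE 0.22), and Mrpl35, a mitochondrial ribosomal protein gene, one of -0.61 (SE 0.08). The groups overlapped for none of these 8 genes, and 3.85% of all tested genes were lower without overlap. These 8, like Mrgprb5 and Grik1, were picked for small p in this same comparison, so their separation adds no support.

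Of 27 tested transcription factor genes of sensory neurons, 5 were higher and 0 lower, where 4.19% and 2.58% of all tested genes were, with a median log2 fold of 0.21 (by edgeR, DESeq2 and limma-voom alike none was lower, and 0 at an unadjusted p under 0.05 in edgeR). Skor2, a corepressor gene, showed the largest fold of the list, at 15.3, 27.6, 14.6, 19.7 and 26.2 CPM against 4.96, 5.38, 4.61, 4.23 and 4.80 CPM (log2 fold 2.12, SE 0.19, edgeR adjusted p = 0.000149). Its icKO-named libraries spread widely but all lay above the Contol-named ones. Tlx3, a homeobox gene of glutamatergic sensory neurons, was at 54.8 ± 9.39 against 30.7 ± 2.59 CPM (SD, n = 5 and 5; 0.82, SE 0.12). Hoxd1, a homeobox gene of nociceptors, was higher by 0.78 (SE 0.13), Pou4f3 by 0.70 (SE 0.15) and Bcl11a by 0.68 (SE 0.17). Pou4f3 and Bcl11a did not pass without the library titled control 3 (edgeR adjusted p = 0.0932 and 0.0998). Isl1 and Pou4f1, which mark sensory neurons in general, had log2 folds of 0.10 (SE 0.08) and 0.39 (SE 0.12) and did not pass.

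Among the 13 tested genes of the PRDM family, Prdm12 included, Prdm8 was the only one called higher (0.66, SE 0.13). In a list of 12 chromatin genes that includes partners of Prdm12, 1 was higher, Wiz, a zinc finger gene (0.40, SE 0.11). The 2 groups of libraries overlapped for Wiz. Of these 12 genes, 9 had a negative fold (median -0.08). A single higher gene in either list is near the background, as 4.19% of all tested genes were higher. Neither Prdm8 (edgeR adjusted p = 0.0797) nor Wiz (0.166) passed when the library titled control 3 was left out. Nearly all genes of visceral neuron fate were too low to be tested. The 1 tested, Gata2, had a log2 fold of -0.29 (SE 0.26).

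Few markers of each neuron class passed, where 4.19% of all tested genes were higher and 2.58% lower. Of 12 pan-sensory neuron genes, 0 passed edgeR's test (6 at an unadjusted p under 0.05), DESeq2 called 5 and limma-voom 0, and 11 had a positive fold (median 0.18). Of 12 peptidergic nociceptor genes, Kit, a receptor tyrosine kinase gene, was higher (0.43, SE 0.10) and Smr2 lower (-1.27, SE 0.25), though not without the library titled control 3 (edgeR adjusted p = 0.0888 and 0.0821). The class-defining Calca, which encodes the neuropeptide CGRP, had a log2 fold of -0.08 (SE 0.12). Trpv1, the capsaicin receptor, was at 0.25 (SE 0.26), with the library titled control 4 at 364 CPM and the other icKO-named libraries at 152 to 193 CPM.

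Of 12 nonpeptidergic nociceptor genes, Agtr1a and Lpar3, a receptor for lysophosphatidic acid, were higher and Mrgprb5 lower, while Mrgprd, a defining receptor of the class, had a log2 fold of 0.02 (SE 0.15). Of 12 genes of itch neurons, Sst and Cysltr2 were higher (0.87, SE 0.18, and 0.62, SE 0.15) and Htr2a and Nppb lower (-0.57, SE 0.12, and -0.53, SE 0.12). The ranges of the 2 groups overlapped for all 4. Without the library titled control 3, Lpar3 (edgeR adjusted p = 0.105), Sst (0.0813), Cysltr2 (0.128), Htr2a (0.0673) and Nppb (0.103) did not pass. Nppb, the natriuretic peptide of itch neurons, was at 14.2 to 15.6 CPM in icKO-named libraries and 21.6 to 23.8 CPM in 4 Contol-named ones, with the library titled icKO 3 at 15.0 CPM.

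In the lists of touch and position neurons, Piezo2, the mechanically gated channel, was at 556 to 865 CPM against 461 to 536 CPM (log2 fold 0.55, SE 0.11), without overlap. Ntrk3, the receptor of neurotrophin-3, was higher by 0.74 (SE 0.17), though the library titled control 4 at 339 CPM lay within the Contol-named range. The difference by name was 0.99 in the 6 animals whose records agree and 0.15 in the other 4. Kcns1, a modulatory potassium channel subunit, had a log2 fold of 0.82 (SE 0.16), and Spp1, which encodes osteopontin, fell by 0.55 (SE 0.13). In all, 2 of 18 genes of A-fibre touch and position neurons were higher and 1 lower, against 4.19% and 2.58% of all tested genes, with a median of 0.26. Of 7 genes of C-fibre touch neurons, 2 were higher, Piezo2 and Zfp521. None of these passed when the library titled control 3 was left out (edgeR adjusted p = 0.074 for Piezo2, 0.0794 for Zfp521, 0.0805 for Kcns1, 0.12 for Spp1 and 0.121 for Ntrk3).

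The counts of the next lists stand against 4.19% of all tested genes higher and 2.58% lower, so that a single called member of a list is near the background. Among 30 ion channel genes of nociceptors, 3 were higher (Piezo2, Asic2 and Hcn2) and 1 lower (Grik1). Scn9a and Scn10a, the sodium channels of nociceptors, had log2 folds of 0.13 (SE 0.08) and -0.05 (SE 0.12) and did not pass. Of 11 receptor genes for neurotrophins and GDNF-family ligands, 4 were higher: Ntrk3, Kit, Gfra4 and Ngfr. Of 18 opioid and other inhibitory receptor genes, Oprl1, the nociceptin receptor, passed (0.45, SE 0.10), and the list median was 0.32. Of 17 nerve injury genes, 4 were higher: Jun (0.77, SE 0.10), the orphan receptor gene Gpr151 (1.19, SE 0.16), Smad1 and Stmn4. Atf3, a transcription factor gene induced in injured neurons, had a log2 fold of -0.29 (SE 0.24) and did not pass. Without the library titled control 3, those not passing were Asic2 (edgeR adjusted p = 0.0739), Oprl1 (0.0813), Gfra4 (0.104), Smad1 (0.105), Stmn4 (0.109), Hcn2 (0.123) and Ngfr (0.13), beside Piezo2, Ntrk3 and Kit.

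**Figure D3:**
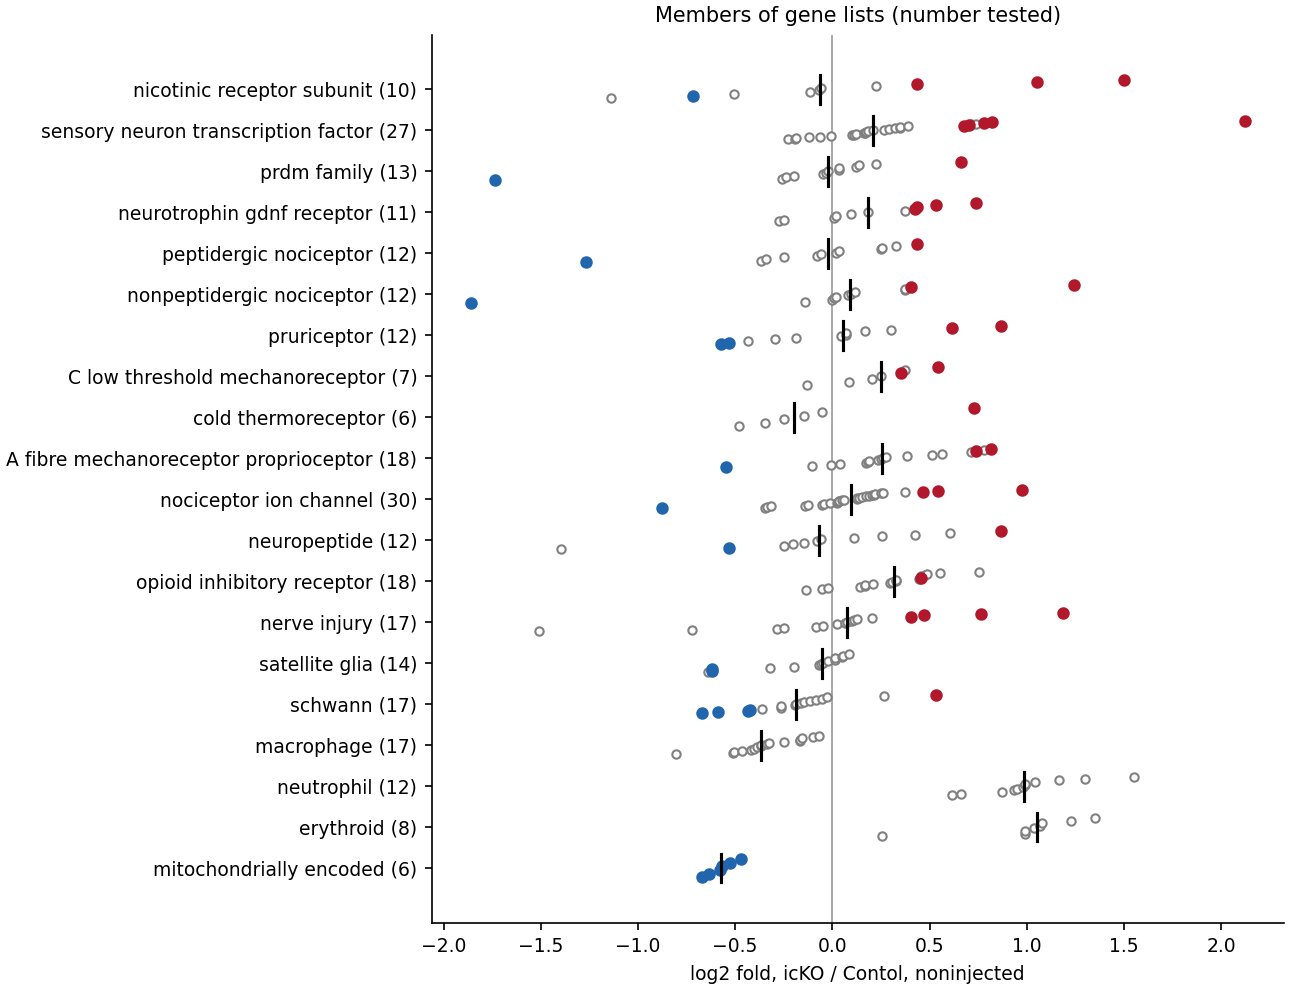
Log2 fold of icKO-named over Contol-named noninjected libraries for the tested members of 20 gene lists (1 point per gene, number tested in brackets); filled red and blue points passed edgeR's adjusted p of 0.05 as higher or lower, and black lines mark list medians. Filled points are few in most neuron lists, while the 6 mitochondrially encoded genes are all filled and lower, and the macrophage, neutrophil and erythroid points lie on 1 side of 0 with none filled.

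Several genes of glia were lower, as 2.58% of all tested genes were. Of 17 Schwann cell genes, 4 were lower (Ugt8a, Ncmap, Mal and Drp2, all of myelin) and 1 was higher (Ngfr), and the median log2 fold was -0.19. Of the satellite glia genes, Cdh19, a cadherin gene, was lower, at 89.4 to 123 CPM against 152 to 173 CPM (-0.62, SE 0.09), without overlap. The summed Schwann level was 4944 to 6764 CPM in icKO-named and 6208 to 7310 CPM in Contol-named libraries, so the groups overlapped. With a correction for GC content, 2 of the 4 Schwann genes passed, and Cdh19 did. Without the library titled control 3, Ugt8a (edgeR adjusted p = 0.0921), Ncmap (0.0932), Drp2 (0.134) and Mal (0.144) did not pass. In the formalin libraries of the same animals, 13 of the 17 Schwann genes and 8 of 14 satellite glia genes had a positive fold. Their medians there were 0.06 and 0.03, 0 of either list were called, and Cdh19 was at -0.05.

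Blood and immune markers did not pass in noninjected ganglia, and within each list their folds had 1 sign. All 17 macrophage genes had a negative fold (median -0.37), and all 12 neutrophil genes (0.98), 8 erythroid genes (1.05) and 13 lymphocyte genes (0.53) had a positive one. In the formalin libraries of the same animals, 16 of the 17 macrophage genes had a positive fold instead (median 0.39, 3 called higher). The neutrophil, erythroid and lymphocyte genes were positive there too (medians 2.11, 2.14 and 1.18). Of the 12 neutrophil genes 3, of the 8 erythroid genes 7 and of the 13 lymphocyte genes 5 were called higher there. Among all genes tested in formalin libraries, 2.85% were higher. In noninjected ganglia with edgeR, 0 of these 50 genes passed and 18 had an unadjusted p under 0.05, while DESeq2 called 4 and limma-voom 0. Summed erythroid levels were 247 to 809 CPM in icKO-named and 161 to 373 CPM in Contol-named libraries, and summed neutrophil levels were 370 to 1377 and 263 to 689 CPM, so both overlapped. Skeletal muscle genes summed to 76.3 to 117 and 97.9 to 114 CPM. The part of such cells in the other differences was not tested.

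Base composition of the genes moved with the comparison. The median GC content of transcripts was 50.4% over all tested genes, 56.0% over the higher genes and 44.7% over the lower ones. Over 10 equal bins of genes, from lowest to highest GC, the median log2 fold ran from -0.17 to 0.18 in noninjected ganglia and from 0.04 to -0.06 in the formalin ganglia of the same animals. Of 9 listed mitochondrially encoded genes 6 were tested, and mt-Co2 and mt-Co3 had no counts in any noninjected library. The 6 tested were all lower (median -0.57), but none passed without the library titled control 3 (edgeR adjusted p from 0.0823 for mt-Nd2 to 0.131 for mt-Nd5). All genes with a symbol starting in mt- together took 3.06% to 4.35% of counts in icKO-named and 4.46% to 6.85% in Contol-named libraries. One ID without a symbol, ENSMUSG00000119584, took 0.932% to 3.82% of counts in icKO-named libraries and 0.318% to 1.25% in Contol-named ones. In the formalin libraries, this ID took 0.345% to 0.954% in icKO-named and 0.362% to 0.989% in Contol-named ones. The mt- genes there took a median of 5.47% in icKO-named and 4.65% in Contol-named libraries, with overlapping ranges. Of the 6 mitochondrially encoded genes, 5 had a positive fold there (median 0.07), and 0 were called.

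With a per-library correction for GC content, chosen after the data had been seen, 350 genes were higher (2.02%) and 201 lower (1.16%), and 477 of the 1175 genes passed in both fits. The Avil stretch had 9 of 10 higher as before. The mitochondrially encoded genes had 0 of 6 past the threshold by edgeR, all 6 with an unadjusted p under 0.05 (median log2 fold -0.37). Among other named genes, Chrna6 was at 1.54, Agtr1a at 1.23, Grik1 at -0.83, Mrgprb5 at -1.76 and Skor2 at 1.84, and each of these passed. Of the 69 called genes selected for naming, 16 did not pass after the correction. They were Chrnb2, Ngfr, Gfra4, Hcn2, Htr2a, Kcns1, Spp1, Stmn4, Ugt8a, Wiz, Comp, Cdk1 and 4 of the mitochondrially encoded genes. Gfra4 moved from 0.42 to 0.05, and the other log2 folds of these genes kept their sign. What underlies the base composition of the libraries was not tested.

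**Figure D4:**
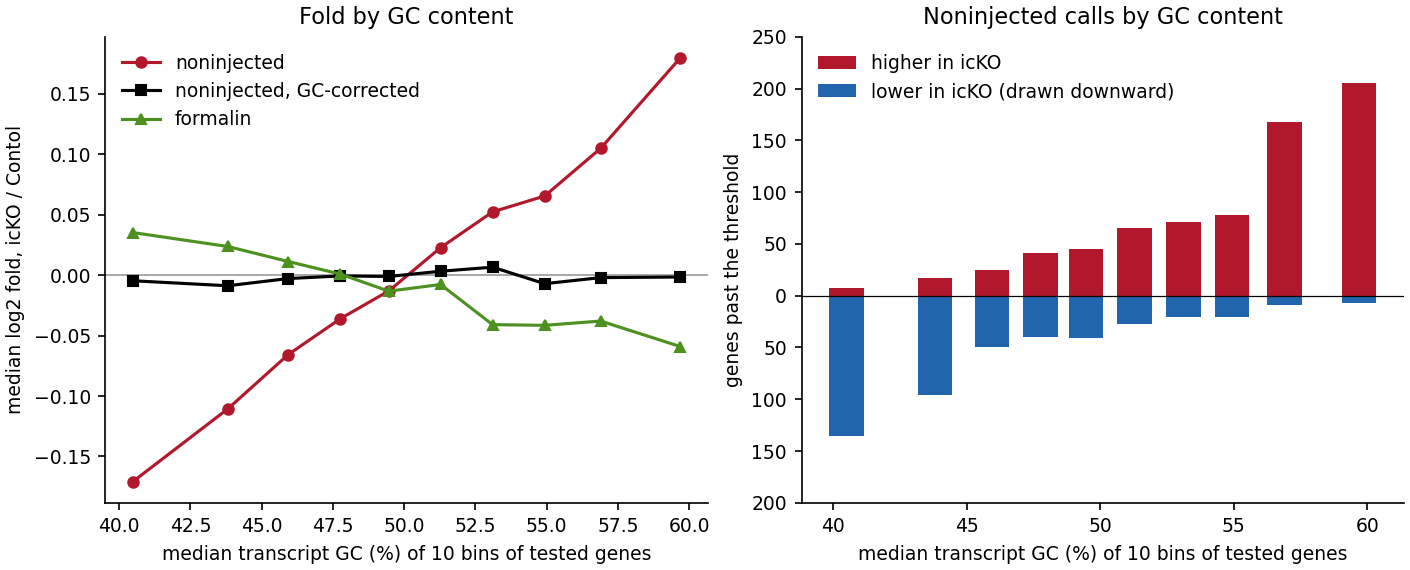
Left, median log2 fold of icKO-named over Contol-named libraries in 10 equal bins of the tested genes ordered by transcript GC content, for noninjected libraries, the same after GC correction, and formalin libraries; right, numbers of genes past the threshold in each bin. The noninjected medians run from -0.17 to 0.18 and the formalin medians from 0.04 to -0.06, and higher genes number 7 in the lowest bin and 205 in the highest.

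Formalin libraries of the same animals gave a second set of libraries, 4 icKO-named and 5 Contol-named, as the formalin library titled icKO 1 held only 2829 counts and was not used. The formalin contrast came from 1 fit of all 19 libraries, noninjected ones included, with sex but no term for the animal. By it 511 genes were higher (2.85%) and 186 lower (1.04%) of 17931 tested. The same fit gave 863 higher and 641 lower in noninjected ganglia, where the fit of 10 libraries gave 727 and 448. Of the 1175 genes called by the fit of 10, 121 also passed in formalin libraries in the same direction (70 higher and 51 lower) and 0 in the other. The animals are shared, so this is no independent set of mice. The median formalin fold was 0.00 for the 727 genes higher in noninjected ganglia and -0.09 for the 448 lower ones. Genes of other tissues differed in the formalin libraries. Median log2 folds were 4.32 for 12 skeletal muscle genes, 2.43 for 8 adipocyte genes and 0.88 for 14 fibroblast genes. Of 12 proliferation genes, 8 were called higher. Of 12 pan-sensory neuron genes, 11 had a negative fold (median -0.16). The part of such tissue in the formalin calls was not tested.

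In these libraries Prdm12 was at 14.2 to 28.7 CPM in icKO-named and 73.9 to 113 CPM in Contol-named libraries (here per library total, without TMM). Tsfm had a log2 fold of 1.47 (SE 0.10), Chrna6 one of 1.25 (SE 0.14), Agtr1a one of 1.23 (SE 0.10), Grik1 one of -0.99 (SE 0.11), Gng2 one of -0.69 (SE 0.07) and Otoa one of -1.25 (SE 0.13), all past the threshold. Tlx3 was at -0.07 (SE 0.17), Chrnb3 at 0.16 (SE 0.24) and Agap2 at 0.12, and these did not pass.

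Whether the genotype difference itself differed between formalin and noninjected ganglia was tested with the animal as a block in the 9 animals with both libraries. No gene of 18434 passed edgeR's test (0 called, smallest Benjamini-Hochberg adjusted p = 0.088), while 4023 had an unadjusted p under 0.05, and DESeq2 called 753. Without the animal titled control 1, edgeR called 2591, and without that titled control 2 it called 2. The genes with the smallest p were Cd300ld, an immune receptor gene, at a log2 interaction of 1.49 (SE 0.22), Pdgfrl at 1.23 (SE 0.20) and Rhoj at 0.88 (SE 0.14) on the positive side. On the negative side they were Adcy2 (-0.84, SE 0.14), Ass1 (-0.84, SE 0.15) and Pde8b (-0.80, SE 0.14). For Tlx3 the interaction was -0.86 (SE 0.25, adjusted p = 0.118).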

How the data were processed

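Each deposited file lists raw read counts by Ensembl ID, made by the authors with STAR 2.7.8a and featureCounts 2.0.1 on GRCm39 after bcl2fastq 2.20.0.422, per the submitters' processing notes. The sources used here do not name the annotation release or how strand and multiple matches were handled. The files list 55416 IDs, of which 52083 (94.0%) matched a symbol. Of the counts of a noninjected library, 96.1% to 99.6% fell on named IDs. No 2 libraries were identical. Each library is 1 animal.

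Counts were tested with edgeR 4.0.16 in R 4.3.3 (robust quasi-likelihood F test, TMM, filterByExpr, sex as covariate, Benjamini-Hochberg over all tested genes, threshold 0.05). Each SE is the absolute log2 fold over the square root of F. On simulated data with 200 changed genes of 17347, this fit recovered 62% at 1.5-fold and 90% at 2-fold. Of its calls, 6.06% and 6.25% were false, against 13.1% and 10.8% with DESeq2. For the interaction over 18434 genes edgeR recovered 77% at 2-fold. Alternatives were RLE factors, DESeq2 1.42.0, limma-voom 3.58.1, no filter, no sex term, 1 dispersion over 19 libraries, each library left out, the 6 agreeing animals and, added later, a loess offset of log counts on transcript GC. GC content came from GENCODE transcripts of GRCm38.p6, so no gene coordinates are printed beside promoter windows.

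Both libraries of an animal bear its number, and their deviations from group means correlated at 0.114 to 0.380 in all 9 pairs, so the interaction was blocked by animal.

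The comparison, lists and named genes were chosen with earlier results of these data known. Named genes are Prdm12, Tsfm, the 12 most significant higher and 12 lower genes (log2 CPM averaging 1 or more, no predicted genes), up to 4 called members per list or else 2 with the smallest p, and 3 per direction for the interaction. Other members are named for the role the list gives them, after their values were seen. Results for some genes are not reported here.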

Additional observations from a re-analysis of the deposited data

Results flagged for a closer look

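Of 184 group values examined (5 libraries of 1 genotype name for 1 named gene), 10 had a highest or lowest library far from the other 4. Chance flags about 1 in 20 groups. Prdm12 was at 38.2 CPM in the icKO-named library titled control 4, where the other icKO-named libraries were at 22.1 to 23.7 CPM. Otoa was at 14.5 CPM in the Contol-named library titled icKO 2, above 11.2 to 12 CPM in the rest of its group. Nppb was at 15.0 CPM in the Contol-named library titled icKO 3, below 21.6 to 23.8 CPM in the others.

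The remaining values concern markers of other cell types. In the icKO-named library titled icKO 5, the macrophage gene Fcrls was at 16.7 CPM and the endothelial gene Esam at 28.3 CPM, each the highest of its group. Esam was lowest in the Contol-named library titled control 2, at 16.3 CPM. Elane, a neutrophil gene, was at 8.57 CPM in that titled icKO 3, and Plin1, an adipocyte gene, at 10.1 CPM in that titled icKO 1, each the highest of its group. The mitochondrially encoded mt-Cytb and mt-Nd1 were at 1.51e+04 and 1.2e+04 CPM in the Contol-named library titled control 3, above the other 4.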

How the results depend on the processing

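The numbers of genes higher and lower in icKO-named noninjected libraries (727 and 448) depended on the setting. They were 1257 and 751 with DESeq2, 1725 and 820 without the filter, and 350 and 201 with GC correction. Higher genes numbered 1107 in the 6 agreeing animals, where 372 were lower. Leaving out 1 library gave 129 to 1323 higher and 46 to 674 lower genes. RLE factors, limma-voom, no sex term and 1 dispersion over all libraries stayed within 1.5 times. Grouped by title, 0 genes became 2 with DESeq2, 425 without the filter and 0 to 1 with 1 library left out. For the interaction, 0 became 753 with DESeq2, 2322 without the filter and 0 to 2591 with 1 animal left out. The sources used here give no pairing by title number. Control and icKO libraries of the same title number correlated at 0.016 to 0.170, 3 of 5 highest for the own number. These correlations used deviations from title-group means, and numbers 1 to 4 each join animals of the same genotype name. They therefore cannot show whether the numbers pair animals. As a replicate block in the title grouping, title numbers gave 0 genes. The interaction without the replicate block of animals gave 0 genes.

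Of 92 named genes, 69 passed the threshold, 34 of them in every setting run, and 0 of the 69 changed direction in any. Uncalled genes that did change direction were Gfap without the library titled control 5 (log2 folds over the fits with 1 library left out -0.6165 to 0.0295), Plin1 without that titled icKO 1 (-0.0292 to 0.9983) and without a sex term (-0.1528), and Slc17a6 in the 6 agreeing animals (-0.0312). With 5 libraries a group, changes under 1.5-fold were often not detectable.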

Other observations

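In 150 genes, 114 higher and 36 lower, the call held in noninjected ganglia with all libraries, with each library left out and with GC correction. Those below lie outside the rule for named genes and were picked after their values were seen. Cyp26b1, an enzyme that breaks down retinoic acid, was at 43.2 ± 12.5 CPM in icKO-named and 14.3 ± 3.15 CPM in Contol-named libraries (± SD of 5; log2 fold 1.63, SE 0.22). Drd1, a dopamine receptor gene, was at 0.783 to 1.95 CPM in icKO-named and 0.073 to 0.316 CPM in Contol-named libraries. Hcrtr1, a receptor gene for orexins, was higher by 0.91 (SE 0.15). The homeobox gene Barx2 (1.06, SE 0.16) and Lmo1 (0.65, SE 0.10), a LIM-only factor gene, were higher as well.

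Ache, which encodes the enzyme that breaks down acetylcholine, was at 90.9 ± 15.9 against 50.6 ± 7.32 CPM (± SD of 5; log2 fold 0.83, SE 0.14), and in formalin libraries its log2 fold was -0.06. Lower genes included Creg2 (-1.25, SE 0.19), the basic helix-loop-helix gene Ascl4 (-1.41, SE 0.24) and Rgs4, a regulator of G protein signalling (-0.56, SE 0.09). In formalin libraries, the log2 folds of Cyp26b1, Barx2, Creg2 and Rgs4 were 1.76, 1.09, -1.23 and -0.58. Pcsk1n, Syt1 and Susd2, also among the 150 and higher in noninjected ganglia, were at -0.19, -0.02 and 0.06 there and did not pass. Of all 1175 genes called in noninjected ganglia, 121 passed in formalin libraries in the same direction.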
